A study of Homo sapiens with 4 samples.

Results

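The integrin and laminin subunits were taken as the protein-coding genes whose GENCODE 29 symbol names an integrin alpha subunit, an integrin beta subunit or a laminin chain. This gave 38 of the 57500 genes in the counts files, of which 18 were integrin alpha subunits, 8 were integrin beta subunits and 12 were laminin chains (5 alpha, 4 beta and 3 gamma). Poly(A) RNA was sequenced from SUM159 cells, a human line of metaplastic, triple-negative breast cancer, in 4 libraries. The parental cells gave 1 library, and 3 clones named NOS2KO (clones 1, 5 and 6) gave 1 library each. The clones came from cells given a double nickase plasmid aimed at NOS2, the gene of inducible nitric oxide synthase, and then puromycin, and each was picked by its iNOS protein and its nitrite and nitrate output. No other agent or allele separates the groups in the labels, and a separate control clone was not among the libraries analysed here. The totals ran from 90467395 to 122171287 counts per library. The NOS2 gene itself was counted 2 times in the parental cells, 3 times in clone 1, 1 time in clone 6 and 18 times in the library that carries the label of clone 5. Its RNA was thus near 0 in the parental cells as well and did not check the labels, and since it was highest in the labelled clone 5, that library is named by its label below. With 1 parental library, every SD is the spread between 3 clones, and a difference between clones and parental cells cannot be told apart from a difference of that parental culture or from the picking of clones.

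Integrins are cell surface receptors built from an alpha and a beta subunit, and the alpha subunit largely sets which matrix protein is bound. Laminins are secreted trimers of an alpha, a beta and a gamma chain that form the sheet of the basement membrane, and they are named by the numbers of their chains, so that LAMA3 and LAMB3 are chains of laminin-332. In breast epithelium, laminin-332 anchors basal cells through the integrins alpha 3 beta 1 and alpha 6 beta 4, while the collagen receptor alpha 2 beta 1 and the fibronectin receptor alpha 5 beta 1 link cells to the stroma.

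Epithelial and mesenchymal markers were used to check the labelled cell type. VIM, FN1, CDH2, ZEB1, SPARC and TWIST1, which mark mesenchymal cells, were all detected, with a summed level of 4693 CPM (counts scaled for library size) in the parental library and 8356 to 10860 CPM in the clones. EPCAM, CDH1 and GRHL2, defining genes of epithelial cells, stayed under 1 CPM in every library, whereas the keratins KRT8 and KRT18 were abundant. The receptor genes ESR1 and PGR were also under 1 CPM, and ERBB2 lay between 48.3 and 106 CPM.

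Of the 38 genes, 32 reached 1 CPM after TMM scaling in at least 1 library. The other 6 (ITGA4, ITGAD, ITGAM, ITGB6, ITGB7 and LAMB4) had between 0 and 85 counts in any library. In the edgeR quasi-likelihood test of the 3 clones against the parental library, 37 genes were tested (ITGB6 was too low), and 0 had an adjusted p under 0.05, against 1 of all 22511 genes tested (0.00444%, the activin subunit INHBE, with 24029 counts in the parental cells and 95 to 120 in a clone). An unadjusted p under 0.05 was found for 3 of them in edgeR (background 11.5%) and 8 in DESeq2 (background 14.3%). The thresholds of the study, an unadjusted p under 0.05 with a log2 fold change beyond 1, are called the criterion below and are applied to the edgeR p, whereas the study used a Wald test. ITGA2, LAMB3 and ITGAL met it, all 3 lower in the clones, which is 8.11% of the genes tested. The background was 9.58% of all genes in either direction, 5.34% lower and 4.24% higher, so the share as a whole lay near that of any gene. With the unadjusted p of DESeq2's Wald test in the same rule 8 of the 37 met it (background 12.1%), of which ITGA8, ITGA9, ITGA10, ITGA11 and ITGB8 were higher, and without clone 1 in edgeR 11 did (background 15.5%), with ITGA2, LAMB3 and ITGAL among them in both cases. In DESeq2, ITGA2 and LAMB3 had an adjusted p under 0.05 among the 33 subunits that it gave an adjusted p, with a background of 3.18% lower and 3.26% higher. Among the 32 genes at 1 CPM or more, ITGA2, LAMB3 and ITGAL were also the 3 that every clone put more than 1 log2 unit below the parental level (background 5.93%), and 0 genes lay that far above it in every clone (background 5.39%). Levels in all 3 clones lay below the parental level for 9 of the 32 (background 34.1%) and above it for 7 (background 28.1%). For the other 16 the parental level lay between those of the clones or tied with one of them.

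**Figure D1:**
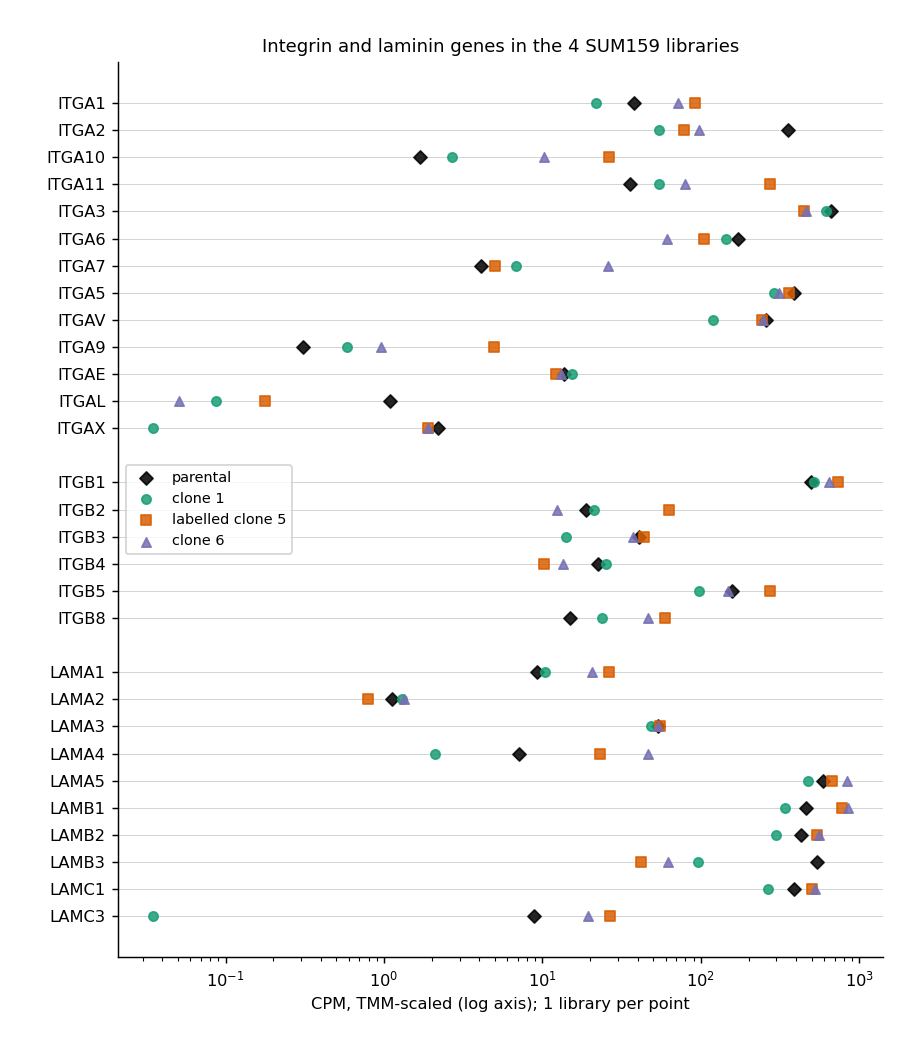
Levels of 29 integrin and laminin genes in the 4 libraries, as TMM-scaled CPM on a log axis, 1 point per library. The parental points (black diamonds) stand far to the right of all 3 clones for ITGA2, LAMB3 and ITGAL. ITGAX and LAMC3 stand apart in clone 1, at 0.0349 CPM each. ITGA2B and ITGA8 are among the genes not drawn.

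Of the laminin-332 chains LAMB3 and LAMA3, LAMB3 met the criterion and LAMA3 did not. LAMB3, the beta chain of laminin-332, is encoded on the minus strand at chr1:209614870-209652466 (GRCh38). Its level was 544 CPM in the parental library, 96.4 CPM in clone 1, 41.7 CPM in the library labelled clone 5 and 61.7 CPM in clone 6. The parental library was thus the highest by a wide margin, at 5.65-fold the level of clone 1, 13.1-fold that of the labelled clone 5 and 8.83-fold that of clone 6. The log2 fold change was -3.03 ± 0.53 (SE), with an unadjusted p of 0.00172 and an adjusted p of 0.275 in edgeR. In DESeq2 the adjusted p was 0.00016, and over the other scalings, filters and tests it ran from 0.00016 to 0.301. Without each clone in turn the adjusted p lay between 0.112 and 0.726. In bulk RNA, fewer cells that express a gene and less of its RNA per cell cannot be told apart.

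Some epithelial markers moved with LAMB3, and others moved the other way. Of 8 epithelial genes 7 were tested and 2 met the criterion, both lower in the clones. These were KRT14, the keratin of basal epithelial cells, with 358 counts in the parental cells and 24, 1 and 0 in the clones, and the epithelial splicing factor ESRP1, with 5.65 CPM in the parental cells and 0.0698, 0.807 and 0.223 CPM in clones 1, 5 and 6. KRT5, the partner of KRT14, did not meet the criterion and was read at 0.144 CPM in the parental cells and 5.75, 1.07 and 0.0507 CPM in the clones. The defining markers EPCAM and CDH1 were under 1 CPM in every library, and GRHL2 had 0 to 3 counts. The summed level of the list was 567 CPM in the parental library and 841 to 1276 CPM in the clones, carried by KRT8 and KRT18. Both were higher than parental in every clone without meeting the criterion. KRT8 went from 253.9 CPM to 416.1, 806.5 and 524.9 CPM, and KRT18 from 303.0 CPM to 419.2, 467.3 and 325.9 CPM. Of the 6 mesenchymal genes, SPARC and TWIST1 met the criterion and were higher, beside a background of 4.24% higher and 5.34% lower. The log2 fold changes of the others were 1.02 for VIM, 0.27 for FN1, -0.09 for CDH2 and -0.77 for ZEB1, which lay below the parental level in every clone. The part of these markers in the LAMB3 value was not tested.

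LAMA3, the alpha chain of the same trimer, lay near its parental level in each clone. It was read at 53.4 CPM in the parental library, 48.7 CPM in clone 1, 55.4 CPM in the labelled clone 5 and 53.8 CPM in clone 6. The clones averaged 52.7 ± 3.50 CPM (SD, n = 3), with the parental value inside their range and a log2 fold change of -0.02 ± 0.26 (SE).

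Levels of the chains of a trimer were compared after dividing CPM by exon length. The length is that of all annotated exons of a gene, so a gene read mainly as a short isoform is understated. In CPM per kb of exon, LAMB3 exceeded LAMA3 by 29.05-fold in the parental library, 5.63-fold in clone 1, 2.14-fold in the labelled clone 5 and 3.26-fold in clone 6. The log2 ratio of LAMB3 to LAMA3 was therefore 4.86 in the parental library against 1.77 ± 0.70 (SD, n = 3) over the clones. The ratio was thus lower in all 3 clones than in the parental library, a difference that does not depend on the lengths. Which chain is the more abundant does depend on them in the labelled clone 5, where LAMB3 was higher per kb but LAMA3 was higher in CPM (55.4 against 41.7 CPM).

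**Figure D2:**
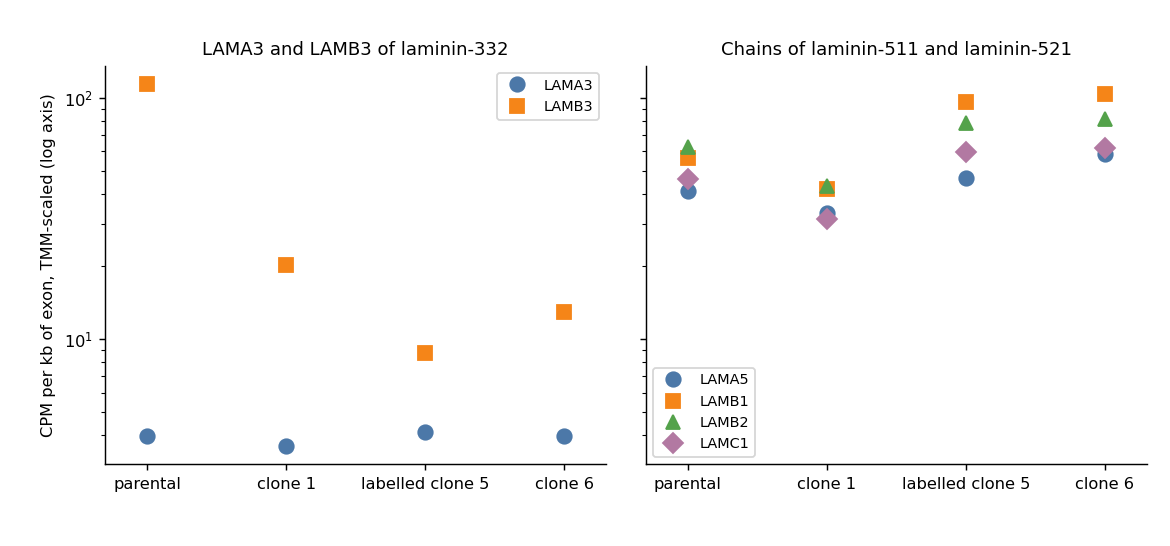
Levels of laminin chains in CPM per kb of exon (log axis) in each of the 4 libraries, for LAMA3 and LAMB3 of laminin-332 (left) and for laminin-511 and laminin-521 (right). LAMB3 is at 115 in the parental library and between 8.77 and 20.3 in the clones, while LAMA3 lies between 3.60 and 4.10 in all 4. LAMA5, LAMB1, LAMB2 and LAMC1 are lowest in clone 1 and higher in the other clones than in the parental library.

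The start regions of LAMB3 and ITGA2, the pair of well-expressed subunits that met the criterion, are shown so that the sequence upstream of both genes can be read beside their values. They are RefSeq sequence of GRCh38.p14, taken from the 250 bases before a start site and cut where an annotated exon of the gene begins. Of the 38 genes, 26 had at least 1 such window, 33 windows in all. Capitals mark the AP-1 letters TGANTCA and the GC box GGGCGG, searched on both strands (CCGCCC is the GC box on the other strand). LAMB3 is shown at an internal start (chr1:209651395-209651624, minus strand) and at its outermost start (chr1:209652467-209652675, minus strand), and ITGA2 at its only window (chr5:52989102-52989325, plus strand).
LAMB3 internal start: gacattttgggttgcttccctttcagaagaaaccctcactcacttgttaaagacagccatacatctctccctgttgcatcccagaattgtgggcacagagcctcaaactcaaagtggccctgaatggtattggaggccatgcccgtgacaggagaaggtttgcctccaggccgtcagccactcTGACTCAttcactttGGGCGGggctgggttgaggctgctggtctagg
LAMB3 outermost start: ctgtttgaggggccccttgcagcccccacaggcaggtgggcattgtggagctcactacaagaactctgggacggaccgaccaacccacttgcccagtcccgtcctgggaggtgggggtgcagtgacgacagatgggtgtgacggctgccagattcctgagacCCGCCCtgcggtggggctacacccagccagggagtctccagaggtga
ITGA2: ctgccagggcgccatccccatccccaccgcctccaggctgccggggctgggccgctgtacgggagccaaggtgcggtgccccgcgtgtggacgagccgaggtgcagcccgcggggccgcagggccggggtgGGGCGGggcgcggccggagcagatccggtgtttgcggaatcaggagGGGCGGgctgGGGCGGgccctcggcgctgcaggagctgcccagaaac
The LAMB3 match to the AP-1 letters begins 67 bases before the internal start. AP-1 letters were present in the 250 bases of 2 of the 33 windows, the internal LAMB3 window and the LAMA3 window (2 matches there), and in 6.57% of all 35116 windows. So the match was shared by LAMB3, which met the criterion, and LAMA3, which did not. The ITGA2 window held no AP-1 letters and 4 GC boxes, of which 3 lie in the stretch shown. GC boxes were found in 17 of the 33 windows and in 42.6% of all windows. TEAD letters (CATTCC) were found in 4 of the 33, in ITGA10, ITGA5, ITGB1 and LAMA2, and in 11.9% of all. A match of letters is not a binding site, and nothing was measured at these sequences.

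The chains of laminin-511 and laminin-521, the widespread laminins of most basement membranes, had similar log2 ratios within a clone and different ones between clones. LAMA5, their alpha chain, was read at 589 CPM in the parental library, 478 CPM in clone 1, 671 CPM in the labelled clone 5 and 841 CPM in clone 6. LAMB1, the beta chain of laminin-511, stood at 459.5, 342, 783.5 and 849 CPM in the same order of libraries. LAMB2, the beta chain of laminin-521, stood at 430.5, 297, 542 and 561 CPM. The gamma chain LAMC1, which they share, stood at 389, 266, 500.2 and 523 CPM. All 4 chains were lowest in clone 1 and highest in clone 6, with the parental library between clone 1 and the other clones. Against the parental library the log2 ratios of the 4 chains lay between -0.55 and -0.30 in clone 1, between 0.19 and 0.77 in the labelled clone 5 and between 0.38 and 0.88 in clone 6. The differences between these chains within a clone spanned at most 0.58, whereas LAMA3 and LAMB3 lay 2.37 to 3.76 apart. Over the 3 clones together none of the 4 met the criterion, with log2 fold changes from 0.12 for LAMB2 to 0.52 for LAMB1 and adjusted edgeR p from 0.765 to 0.94.

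For most pairs of these chains the parental ratio lay near those of the clones. Per kb of exon, the log2 ratio of LAMB2 to LAMC1 was 0.44 in the parental library against 0.42 ± 0.03 (SD, n = 3) over the clones. The ratio of LAMC1 to LAMA5 was 0.17 in the parental library and 0.12 ± 0.21 in the clones. For LAMB1 to LAMC1 it was 0.29 in the parental library against 0.62 ± 0.18 over the clones. The makeup of the beta chain RNA differed from the parental one in each clone. LAMB3 made up 49.0% of the summed beta chain level per kb in the parental cells against 19.2% for clone 1, 4.77% for the labelled clone 5 and 6.53% for clone 6, while LAMB1 went from 24.1% to 39.8%, 52.3% and 52.4%. In clone 1 the larger LAMB1 share went with a lower LAMB1 level, 42.02 against 56.45 CPM per kb in the parental library. The summed beta chain level there was 105.6 against 233.8 CPM per kb. Among alpha chains LAMA5 held 88.6% in the parental library against 86.6% ± 1.20 (SD, n = 3) over the clones.

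**Figure D3:**
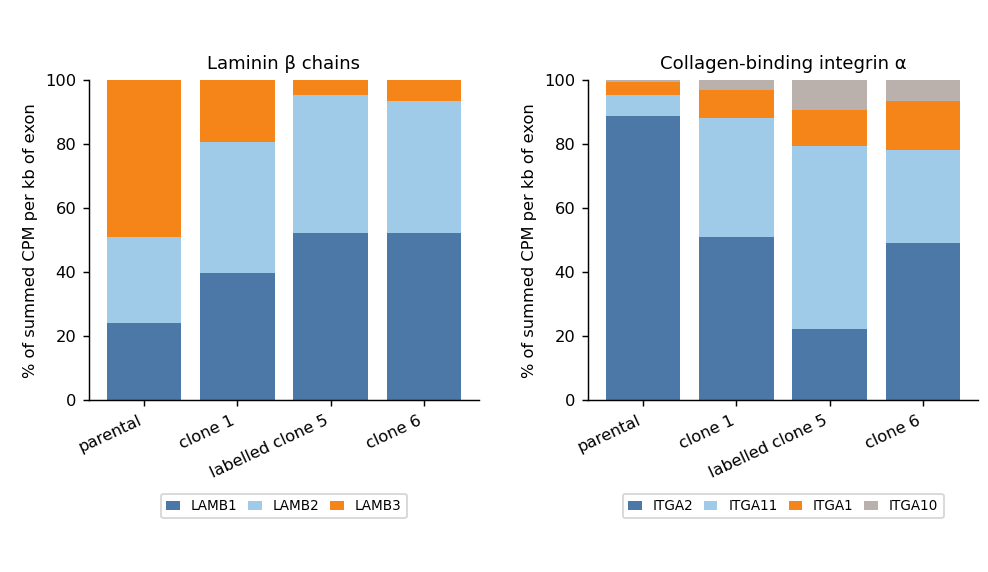
Share of each gene in the summed CPM per kb of exon of its class, in percent, as stacked bars from 0 to 100 for each library. Left, LAMB3 fills 49.0% of the beta chains in the parental library and at most 19.2% in a clone. Right, ITGA2 fills 88.9% of the collagen-binding alpha subunits in the parental library and 22.2% to 50.9% in the clones. LAMB4 is too low to be drawn.

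LAMC3, LAMA4, LAMA1, LAMA2 and LAMB4 were less abundant, and LAMC3 and LAMA4 differed most between the clones. LAMC3, a gamma chain of restricted tissues, was counted 801 times in the parental cells, 4 times in clone 1, 2869 times in the labelled clone 5 and 1901 times in clone 6. Its log2 ratio to parental was -7.99 in clone 1 (95% interval from counting error, -9.87 to -6.63), 1.60 in the labelled clone 5 and 1.12 in clone 6. LAMA4, the alpha chain of the vascular and stromal laminin-411 and laminin-421, was read at 7.10 CPM in the parental library, 2.09 CPM in clone 1, 23.1 CPM in the labelled clone 5 and 46.6 CPM in clone 6. It was thus lower than parental in clone 1 and higher in the others, and its log2 fold change of 1.75 ± 1.48 (SE) had an adjusted edgeR p of 0.708 and was 0.83 without clone 6. LAMA1, the alpha chain of the embryonic laminin-111, was higher than the 9.29 CPM of the parental library in every clone, at 10.45, 26.2 and 20.6 CPM, without meeting the criterion (log2 fold change 1.04 ± 0.58, adjusted p = 0.561). LAMA2, the alpha chain of the muscle laminin-211 and laminin-221, stayed between 0.797 and 1.33 CPM. LAMB4 had 5, 5, 26 and 85 counts. Against LAMC1, LAMA1 and LAMA4 RNA remained minor per kb of exon in every library, with a ratio of at most 0.0278 for LAMA1 and 0.0647 for LAMA4.

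Among the integrins, the other abundant gene to meet the criterion was a collagen-binding alpha subunit. ITGA2, the alpha subunit of the main epithelial collagen receptor, is encoded on the plus strand at chr5:52989326-53094779. It was read at 356 CPM in the parental library, 54.3 CPM in clone 1, 77.8 CPM in the labelled clone 5 and 97.7 CPM in clone 6. The parental library again stood apart, 6.56-fold, 4.58-fold and 3.65-fold above the clones, which averaged 76.6 ± 21.7 CPM (SD, n = 3). The log2 fold change was -2.22 ± 0.41 (SE), with an unadjusted p of 0.00235 and an adjusted p of 0.275 in edgeR. In DESeq2 the adjusted p was 0.00106, and over all the other scalings, filters and tests it ran from 0.00106 to 0.308. Without each clone in turn it lay between 0.113 and 0.726.

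The other collagen-binding subunits did not share that direction. ITGA11, a collagen receptor of fibroblasts, was read at 35.9 CPM in the parental library, 54.7 CPM in clone 1, 274 CPM in the labelled clone 5 and 79.0 CPM in clone 6. ITGA10, a collagen receptor of cartilage, was read at 1.68, 2.68, 26.5 and 10.3 CPM in the same order. Both were above parental in every clone and highest in the labelled clone 5, and both missed the criterion in edgeR, where the log2 fold changes were 1.92 ± 0.97 for ITGA11 (adjusted p = 0.551) and 2.97 ± 1.22 for ITGA10 (adjusted p = 0.507). In DESeq2 both met it, with an unadjusted p of 0.0459 for ITGA11 and 0.00949 for ITGA10. The DESeq2 adjusted p was 0.268 for ITGA11 and 0.101 for ITGA10. Without the labelled clone 5 the edgeR log2 fold changes were 0.92 for ITGA11 and 1.97 for ITGA10. ITGA1, found on smooth muscle and fibroblasts, was read at 37.7, 21.7, 91.5 and 71.9 CPM, so the parental value lay between those of the clones. Per kb of exon, ITGA2 made up 88.9% of this class in the parental library and 50.9% in clone 1, 22.2% in the labelled clone 5 and 49.2% in clone 6. The share of ITGA11 was 6.52% in the parental library and 37.3%, 57.1% and 29.0% in the clones. The summed level of the class was 50.6 CPM per kb in the parental cells against 13.5, 44.2 and 25.1 CPM per kb in clone 1, the labelled clone 5 and clone 6, so in the labelled clone 5 the class total lay near the parental total with another member leading it.

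**Figure D4:**
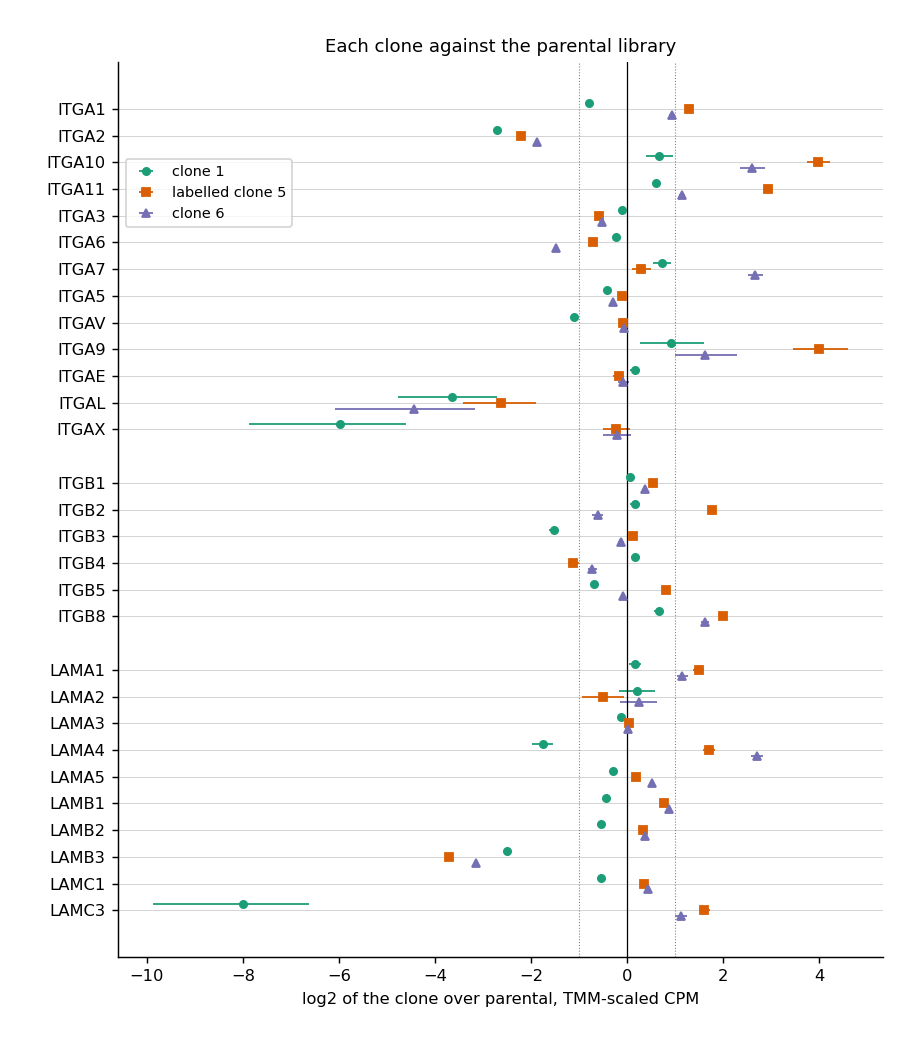
log2 of each clone over the parental library in TMM-scaled CPM for 29 integrin and laminin genes. Bars are 95% Clopper-Pearson intervals and cover counting error only, and dotted lines mark -1 and 1. ITGA2, ITGAL and LAMB3 lie left of -1 in all 3 clones, while LAMC3 and ITGAX lie far left in clone 1 alone.

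No laminin-binding alpha subunit met the criterion. ITGA3, the main laminin receptor subunit of many epithelia, was read at 664 CPM in the parental library, 621 CPM in clone 1, 445 CPM in the labelled clone 5 and 460.5 CPM in clone 6. Per kb of exon it was the highest of the alpha subunits in 3 of the 4 libraries, and in the labelled clone 5 ITGA5 stood slightly above it (47.5 against 45.4 CPM per kb). ITGA6, which pairs with ITGB1 or with ITGB4 in the hemidesmosome, was read at 171.5 CPM in the parental library, 145 CPM in clone 1, 104.5 CPM in the labelled clone 5 and 61.6 CPM in clone 6. Each lay below parental in every clone, the log2 fold changes being -0.38 ± 0.36 for ITGA3 (adjusted p = 0.697) and -0.73 ± 0.52 for ITGA6 (adjusted p = 0.612), and neither met the criterion. ITGA7, a laminin receptor subunit of muscle, was read at 4.09, 6.78, 5.04 and 26.1 CPM, highest in clone 6. ITGB4, the hemidesmosomal partner of ITGA6, was read at 22.3, 25.2, 10.3 and 13.6 CPM, so clone 1 lay above the parental library and the others below it. Per kb of exon ITGA6 exceeded ITGB4 by 7.95-fold in the parental library, 5.96-fold in clone 1, 10.5-fold in the labelled clone 5 and 4.70-fold in clone 6. The parental ratio thus lay inside the range of the clones. Taken against ITGB1, its other partner, the log2 ratio of ITGA6 was -1.66 in the parental library against -2.80 ± 0.78 (SD, n = 3) over the clones.

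ITGB1, the shared partner of most alpha subunits here, was read at 497 CPM in the parental library, 519 CPM in clone 1, 729 CPM in the labelled clone 5 and 643.5 CPM in clone 6. All 3 clones lay above the parental library, with a log2 fold change of 0.34 ± 0.35 that did not meet the criterion (adjusted p = 0.734). Per kb of exon it made up 67.1% of the beta subunits in the parental library against 71.4% ± 6.34 (SD, n = 3) over the clones. ITGA2, ITGA3, ITGA5, ITGA6 and ITGAV each had a lower log2 ratio to ITGB1 in all 3 clones than in the parental library. The mean difference was -2.59 for ITGA2, -1.14 for ITGA6, -0.74 for ITGAV, -0.73 for ITGA3 and -0.60 for ITGA5. The share of these values that comes from ITGB1 itself is the same for each of them, so the differences between them are those of the alpha subunits.

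None of the subunits of the receptors that read the RGD motif of fibronectin and vitronectin met the criterion. ITGA5, the fibronectin receptor subunit, was read at 387 CPM in the parental library, 291.5 CPM in clone 1, 359.6 CPM in the labelled clone 5 and 314 CPM in clone 6. ITGAV, which joins several beta subunits and includes the receptors that activate latent TGF-beta, was read at 257, 120.2, 243 and 245 CPM, so that clone 1 stood apart from 3 libraries that lay close together. ITGB3, its vitronectin partner, was also lowest in clone 1, with 40.6, 14.03, 44.0 and 37.2 CPM. The log2 ratio of ITGAV to ITGB3 was 1.76 per kb in the parental library against 1.86 ± 0.32 (SD, n = 3) over the clones, although 51.57% of the ITGB3 exon bases are shared with another annotated gene and its level per kb may be understated for that reason. ITGB5 was read at 157, 97.8, 274 and 147 CPM, highest in the labelled clone 5. ITGB8, whose pairing with ITGAV activates TGF-beta, was read at 15.0 CPM in the parental library, 23.7 CPM in clone 1, 59.6 CPM in the labelled clone 5 and 46.2 CPM in clone 6. It lay above parental in all 3 clones, by 1.58-fold, 3.97-fold and 3.08-fold, and missed the criterion in edgeR (log2 fold change 1.52 ± 0.56, unadjusted p of 0.0588, adjusted p = 0.449). Its DESeq2 p was 0.0187 unadjusted and 0.156 adjusted. ITGAV exceeded ITGB8 by 31.65-fold per kb in the parental library and by 9.36-fold, 7.53-fold and 9.81-fold in the clones. ITGB6, the epithelial partner of ITGAV, had 0, 3, 5 and 2 counts, at or near the 3 counts that a count of 0 allows.

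ITGA8, an RGD receptor subunit of smooth muscle and kidney mesenchyme, had 0 counts in both the parental cells and clone 1 but 142 in the labelled clone 5 and 5 in clone 6. Taking 3 counts as the limit that 0 allows in the parental library, the labelled clone 5 was at least 40.1-fold higher. ITGA9, which binds tenascin and osteopontin, was read at 0.310, 0.584, 4.95 and 0.953 CPM, and its log2 fold change of 2.80 ± 1.37 did not meet the criterion (adjusted p = 0.554) and was 1.33 without the labelled clone 5. ITGA4, a VCAM1 receptor subunit, had 1, 0, 12 and 3 counts. ITGA2B, the platelet fibrinogen receptor subunit, was read at 0.431, 0.401, 1.34 and 1.52 CPM, while the platelet genes GP9, PF4 and PPBP had at most 1 count in any library. GP9 had 0 counts in all of them. The 6 platelet genes, ITGA2B included, summed to 1.47 CPM in the parental library and 1.18, 3.12 and 3.16 CPM in the clones. Each sum exceeded ITGA2B alone, so the list was not silent apart from ITGA2B. The labelled clone 5 had the highest level of ITGA4, ITGA8, ITGA9, ITGA10, ITGA11 and ITGA1 among the 4 libraries. The same library also had the highest levels of the endothelial genes CDH5, VWF and TEK, at 3.49, 3.80 and 2.02 CPM, whereas the list of 6 endothelial genes summed to 16.8 CPM there and 16.4 CPM in the parental library, and EMCN had no more than 11 counts. PECAM1, the most abundant of the list, was lowest in the labelled clone 5 (7.06 CPM against 16.1 CPM in the parental library), and KDR was highest in clone 1 at 0.698 CPM. The part of these markers in the integrin values was not tested.

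Most alpha subunits of the leukocyte integrins were scarce, and the leukocyte integrins moved in separate ways. ITGAL, the alpha subunit of LFA-1, was read at 1.10 CPM in the parental library, 0.0872 CPM in clone 1, 0.178 CPM in the labelled clone 5 and 0.0507 CPM in clone 6, from 99, 10, 19 and 5 counts. It was the third gene to meet the criterion (log2 fold change -3.36 ± 0.90, unadjusted edgeR p of 0.0103, adjusted p = 0.332), with a DESeq2 adjusted p of 0.0813 and a range of 0.0813 to 0.346 over the other scalings, filters and tests. Without each clone in turn it ran from 0.184 to 0.739. ITGAM, the alpha subunit of Mac-1, had 32, 4, 13 and 1 counts and missed it (adjusted p = 0.495). ITGAX, the CD11c subunit, was counted 199 times in the parental cells, 4 times in clone 1, 201 times in the labelled clone 5 and 188 times in clone 6, so that clone 1 stood apart with a log2 ratio of -5.98 (95% interval -7.87 to -4.60). ITGAD had 2, 2, 32 and 14 counts. ITGAE, which pairs with ITGB7 and binds E-cadherin, was read at 13.8, 15.5, 12.2 and 13.1 CPM, and ITGB7 had 6, 5, 47 and 32 counts with 42.09% of its exon bases shared with another gene. ITGB2, the partner of ITGAL, ITGAM and ITGAX, was read at 18.8, 21.0, 63.4 and 12.3 CPM, with a level per kb of exon above that of each of these partners in every library, and it was highest in the labelled clone 5. Of the 8 leukocyte markers, 4 stayed under 1 CPM in every library. Their summed level was 144 CPM in the parental library and 78.2, 221.4 and 131 CPM in the clones. Of these, PTPRC (CD45) met the criterion and was higher, from 4.45 CPM in the parental library to 68.4, 105 and 41.7 CPM, as did CORO1A. LCP1 did not meet it and was lower, from 126 CPM in the parental library to 3.58, 109 and 75.3 CPM in the clones. The part of these markers in the leukocyte integrin values was not tested.

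By ligand class, laminin-binding subunits made up 41.1% of the summed alpha level per kb in the parental library against 42.3% ± 11.8 (SD, n = 3) over the clones, with the highest share in clone 1 at 55.6%. The RGD class made up 35.8% in the parental library and 40.2% ± 5.47 in the clones. Collagen-binding subunits made up 22.0% of it in the parental cells and 8.67%, 23.7% and 15.7% in clone 1, the labelled clone 5 and clone 6. For each of these 3 classes the parental share lay inside the range of the clones. The leukocyte class held 1.14% to 1.51% and ITGA4 with ITGA9 at most 0.328%. The total over all 18 alpha subunits was 230.5 CPM per kb in the parental library and 156, 187 and 159.6 CPM per kb in the clones, lower in each.

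Over the whole set the median had another sign in clone 1 than in the other clones, a difference that was not tested. In clone 1, 20 of the 32 genes at 1 CPM or more were below parental with a median log2 ratio of -0.30, against a median of -0.08 over all tested genes at that level. In the labelled clone 5, 20 were above parental, with a median of 0.30 against -0.05, and in clone 6, 18 were above, with a median of 0.24 against -0.06. Among the 11 laminin chains at that level, 9 were below parental in clone 1, 8 were above in the labelled clone 5 and 9 above in clone 6. Their medians were -0.43, 0.33 and 0.43 in the same order. The integrins did not share that pattern. The medians of the integrin alpha subunits were -0.17, -0.09 and -0.07, below 0 in every clone. Those of the integrin beta subunits were 0.11, 0.68 and -0.11. Of all 15280 tested genes at that level, 8174 were below parental in clone 1. In the labelled clone 5, 7242 of these genes were above parental, and 7237 were above in clone 6. The median fitted log2 fold change of the 37 tested genes was 0.17, and that of all 22511 tested genes was 0.10.

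The genes that work with integrins and laminins were read in 5 lists of other genes, each beside the background of 9.58% of all genes (4.24% higher and 5.34% lower). Of 24 integrin adaptors and activators tested, 4 met the criterion, 2 higher and 2 lower. VCL, vinculin, which ties talin to actin, was higher, from 92.0 CPM in the parental library to 251, 366 and 353.5 CPM in the clones. ILK, the integrin-linked kinase of the beta 1 tail complex, was higher as well, from 30.9 CPM to 106, 91.7 and 86.7 CPM. LIMS1 (PINCH1), the adaptor bound to ILK, was lower, from 221.3 CPM to 93.2, 74.5 and 82.6 CPM, and the actin crosslinker FLNC was lower from 2.19 CPM to 0.0436, 0.178 and 0.345 CPM. So the partners ILK and LIMS1 went in opposite directions in each of the 3 clones.

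Of 20 focal adhesion signalling genes, 4 met the criterion (background 9.58%). CAV1, the coat protein of caveolae, was higher, from 90.1 CPM in the parental library to 527, 463 and 312.5 CPM. The scaffold PXN (paxillin) and its relative TGFB1I1 were higher too, with log2 fold changes of 1.04 ± 0.35 and 1.30 ± 0.30, and the kinase PTK2B was lower (-1.03 ± 0.41). Of 9 hemidesmosome and tetraspanin partners, COL17A1, the transmembrane collagen that hemidesmosomes anchor to laminin-332, was lower. It was counted 2371 times in the parental cells, 153 times in clone 1, 35 times in the labelled clone 5 and 8 times in clone 6, the same direction as LAMB3. The integrin-associated tetraspanin CD9 was higher, from 19.8 CPM to 73.2, 53.2 and 42.5 CPM.

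Of 26 basement membrane partners of laminin, 5 met the criterion as higher (background 4.24%) and 2 as lower (background 5.34%). COL4A4, a collagen IV chain, was higher, from 30 counts to 318, 1415 and 484 counts, and the sarcoglycan SGCA went from 0 counts to 12, 48 and 14. SMOC1, a secreted calcium-binding matrix protein, was lower, from 201 CPM in the parental library to 37.0, 42.7 and 15.7 CPM, and the sarcoglycan SGCD was lower from 1.97 CPM to 0.0610, 0.122 and 0.142 CPM. Of 24 integrin ligands outside the basement membrane that were tested, 4 were higher and 1 lower. THBS1, thrombospondin 1, went from 69.0 CPM to 550.1, 3302 and 1192 CPM. The matricellular protein CTGF went from 15.0 CPM to 157, 71.5 and 82.1 CPM, EDIL3, an RGD protein, had a log2 fold change of 1.09 ± 0.30, and the leukocyte ligand ICAM1 was the lower member, from 140.0 CPM to 70.4, 46.3 and 43.9 CPM. Of the 103 genes tested in these 5 lists, 0 had an adjusted p under 0.05 in edgeR (background 0.00444%), 23 had an unadjusted p under 0.05 (background 11.5%), and 15 had an adjusted p under 0.05 in DESeq2 (background 3.18% lower and 3.26% higher). In edgeR the adjusted p of those named ran from 0.275 to 0.43. The list medians were 0.22, 0.16, 0.44, 0.39 and 0.76 on the log2 scale in the order given, beside 0.10 over all tested genes.

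**Figure D5:**
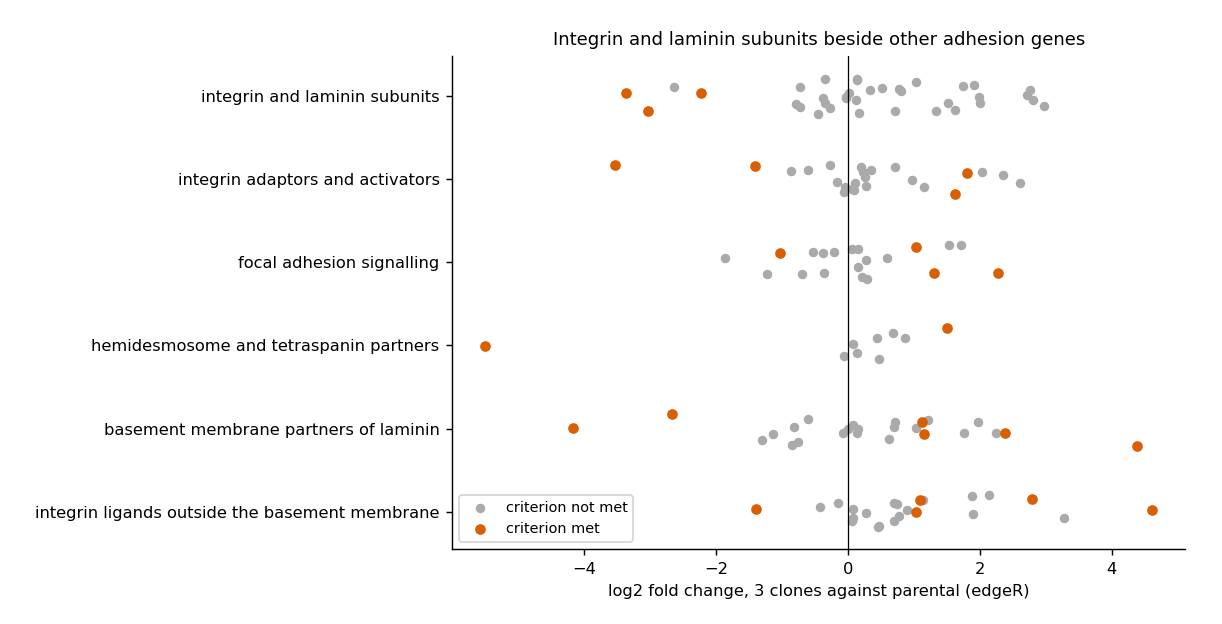
log2 fold change of the 3 clones against the parental library (edgeR) for each tested gene of the integrin and laminin set and of 5 other adhesion lists, 1 point per gene with height spread at random. Orange points met the criterion. In the top row the 3 orange points are all left of 0, while in each other row orange points lie on both sides. ITGA8, SGCA and FGA, at 0 counts in the parental library, are left out.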

How the data were processed

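Per the submitters' processing notes, reads were trimmed with Trimmomatic 0.36, aligned to GRCh38 with STAR 2.5.2b and counted with featureCounts of Subread 1.5.2, so the deposited values are raw counts per gene, 1 library per file, made by the authors. Whether reads were counted by strand is not given in the sources used here. Symbols came from GENCODE 29, which matched 56898 of 57500 genes, and 35 of the 38 members had the same start and end there. Counts were scaled by TMM and tested with the edgeR 4.0.16 quasi-likelihood test (group as the only term, 2 residual degrees of freedom, filterByExpr by group, Benjamini-Hochberg over 22511 genes). An exact permutation of 1 library against 3 cannot go below p = 0.25. DESeq2 1.42.0, other scalings and filters and leaving out each clone were the alternatives. Per-clone log2 ratios carry 95% Clopper-Pearson intervals for counting error only, since reads had no molecular identifiers. A count of 0 allows 3 counts, that is 0.0262 to 0.0332 CPM in a library. Per-length levels were CPM divided by kb of exon in the files. Both the fit and the intervals were tested on simulated data. The text describes the members of at least 1 CPM in a library by their values and the others by counts, leaves out 1 member and 1 marker gene that are not reported here, and names in each adhesion list up to 4 genes with the largest changes that met the criterion in the same direction in all 3 clones. Members, classes and gene lists were chosen with earlier results of these data known.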

Additional observations from a re-analysis of the deposited data

How the results depend on the processing

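ITGA2, ITGAL and LAMB3 met the criterion under every scaling and filter, in DESeq2 and without each clone. Further members joined them in DESeq2 (8 in all, with ITGA8, ITGA9, ITGA10, ITGA11 and ITGB8 higher), without a filter (4 in all, with ITGB8) and without clone 1 (11 in all), and the range without each clone was 3 to 11. Members with an adjusted p under 0.05 numbered 2 in DESeq2 and 0 in each edgeR fit. Over all genes that count was 1 in edgeR, 6 without a filter, 0 without any of the clones and 1113 in DESeq2, and the criterion was met by 1466 to 3399 genes without each clone, the most without clone 1. Of the genes that met it, 55.7% were lower with TMM, 47.1% with upper quartile scaling, which moved the median of all genes from 0.10 to 0.20, and 41.8% in DESeq2. Members more than 1 log2 unit higher in every clone numbered 0 (background 5.39%), 4 at a threshold of 0.58 and 0 to 9 without each clone, the most without clone 1. Members lower by that much numbered 3 (background 5.93%), also without each clone, and 2 at 10 CPM or more. A lower threshold or fewer clones is easier for any gene to pass. The share of all genes in those settings is not given here, so their counts have no background beside them. The shares of ITGA2 and LAMB3 and the ratio of LAMB3 to LAMA3, whose alternatives were chosen after seeing the data except for the ratio without length, moved by less than the SD of the clones. The causes were not tested.

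Of 32 members, 8 changed sign in some alternative, 14 times in all, and none of the 8 had met the criterion. ITGAE (-0.02) became 0.08 with upper quartile scaling and 0.01 with the 1 CPM filter, and ran from -0.12 to 0.07 without each clone. LAMA3 (-0.02) became 0.09 and 0.02 in the same settings and ran from -0.04 to 0.04. Without each clone ITGB2 (0.78) ran from -0.15 to 1.17 and ITGB5 (0.14) from -0.33 to 0.43, lowest without the labelled clone 5. In the same way LAMA5 ran from -0.03 to 0.36, LAMB2 from -0.03 to 0.36, LAMC1 from -0.02 to 0.40 and LAMA2 from -0.10 to 0.25, lowest without clone 6. No paired analysis was possible because the parental group has 1 library.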
